A study of Mus musculus with 5 samples.

Results

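The 35 type I interferon stimulated genes described here are antiviral and signalling genes that mouse cells induce through the type I interferon receptor, together with the transcription factors of that response, with the GBP and IRG GTPases left out. They were taken by gene name from a table of 11564 genes, and all 35 had values. They were chosen by name and known function, with no threshold on a measured value, although earlier results of these data were known at the time. The table holds RNA sequencing of sorted mouse CD8 T cells, the cytotoxic lymphocytes that carry the Cd8a and Cd8b1 chains. There were 3 libraries labelled PHD2-deltaT and 2 labelled WT. PHD2, encoded by Egln1, is the prolyl hydroxylase that marks HIF-1 alpha for degradation when oxygen is present, and the series title concerns its part in antitumor CD8 T cell activity. The driver of the deletion, the strain, the age and any treatment are not given here, and the labels do not state whether the libraries of a genotype came from separate mice. P-values therefore measure the spread between these libraries, which may be technical.

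Type I interferons bind a receptor made of IFNAR1 and IFNAR2, and the kinases TYK2 and JAK1 then phosphorylate STAT proteins, STAT2 among them. STAT2 and IRF9 are subunits of the complex ISGF3, which binds interferon stimulated response elements near the start of its target genes. The targets encode sensors of foreign nucleic acid, enzymes that degrade or edit RNA, proteins that block viral translation, and feedback regulators such as USP18. T cells express the receptor and answer to interferon that other cells release.

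Values are the authors' normalized counts, which sum to between 19593220 and 20253007 per library. The reads behind them were inferred from the spacing of the values as 10818543 to 15381926 per library, lowest in WT replicate 1. Egln1 itself, on chromosome 8 from 124908587 to 124949324 on mm10, had 5447, 4327 and 4993 in the libraries labelled PHD2-deltaT, against 1927 and 2182 in WT libraries. It was higher under the deletion label (log2 fold change 1.26, SE 0.09, limma-trend adjusted p 2.86e-07), and a count over the whole gene cannot separate deleted from remaining exons. Every direction given for the interferon genes therefore rests on the labels. The summed level of 9 CD8 T cell markers was 84072 to 87358 in PHD2-deltaT-labelled libraries and 84255 to 89660 in WT libraries, with Cd8a at 15829 to 17936 and 16444 to 17489. Of the 9, 1 was higher, the adhesion receptor Cd2 (0.39, limma-trend adjusted p 0.00524), where 2.97% of all genes were.

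Of the 35 genes, 18 were higher in libraries labelled PHD2-deltaT than in WT libraries at a limma-trend adjusted p under 0.05, and 0 were lower. Over all 11534 genes tested, 2.97% were higher and 1.02% were lower by that rule. At an unadjusted p under 0.05, 27 members were higher and 0 were lower, where 8.53% of all genes were higher. The median log2 fold change over the members was 0.40, beside -0.01 over all genes tested. Among genes that passed, the largest changes were in Ifi44, Oas1a, Rsad2, Oasl2, Isg15 and Usp18, each above 2-fold. Both WT values of Ifi44 were under 10, so it entered the test through its PHD2-deltaT-labelled libraries. Adar, Samhd1 and Shisa5 had log2 fold changes of 0.07, 0.10 and 0.03 and did not pass. In bulk RNA, more cells with the response and more RNA per cell cannot be told apart.

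**Figure D1:**
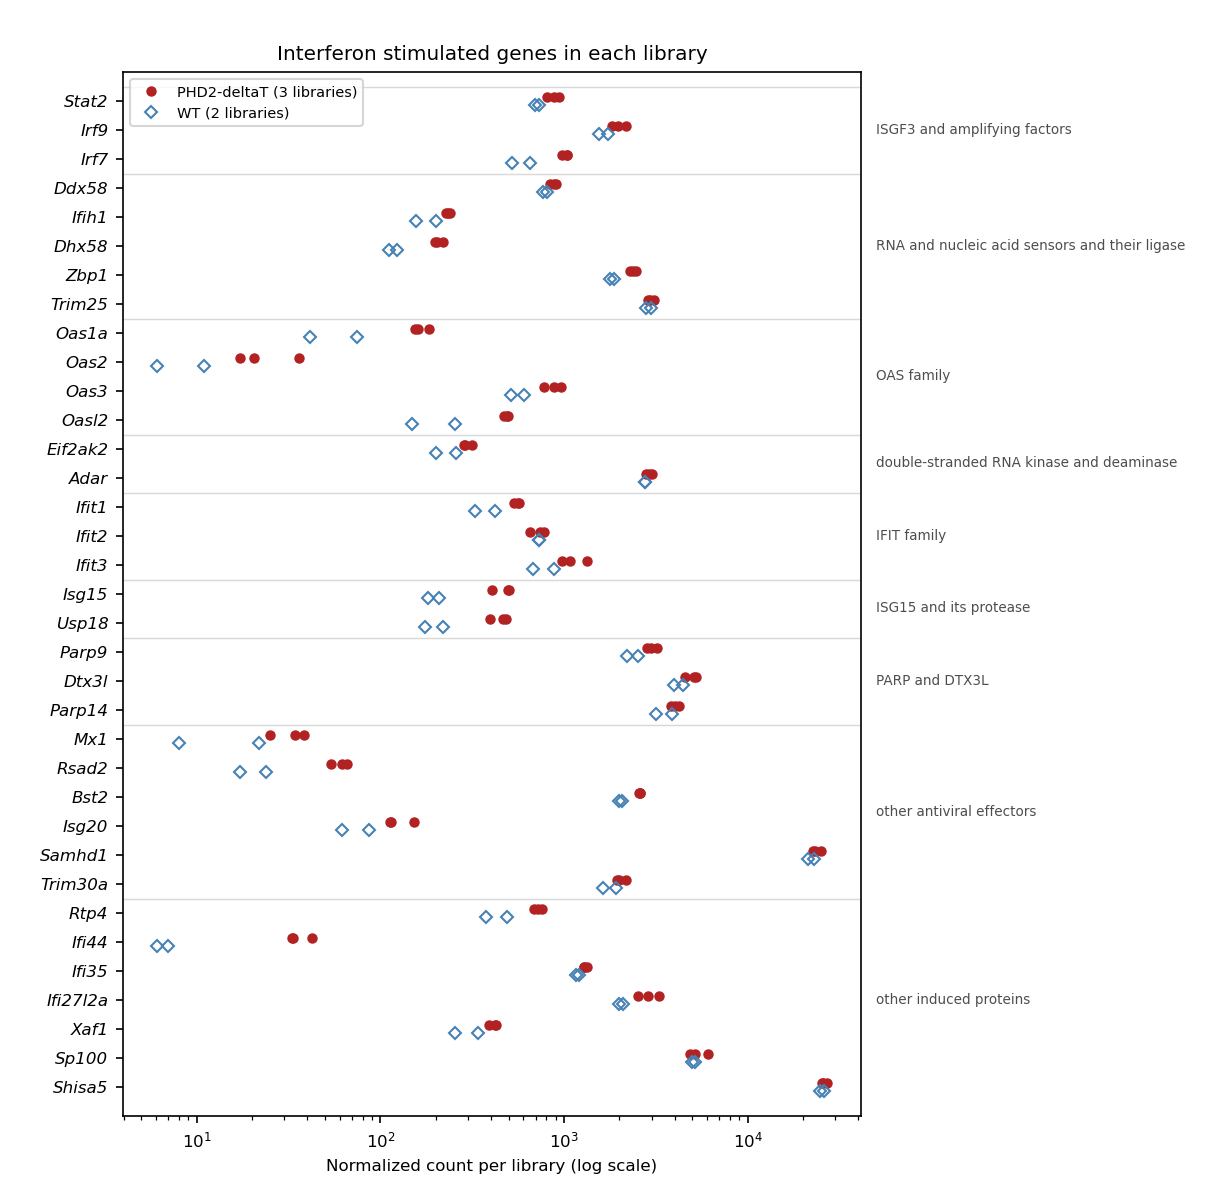
Normalized counts (log axis) of the 35 genes in each of the 5 libraries, with PHD2-deltaT-labelled libraries drawn first and WT libraries after them. In 29 of the 35 genes all 3 PHD2-deltaT-labelled values lie above both WT values, and the genes that overlap sit mostly among the well expressed ones.

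Sequence from the start regions of 7 members is shown because these windows carry the element that ISGF3 binds, and because they include genes that rose and one, Ddx58, that did not pass the test. Windows run from 250 bases before to 50 bases after the transcript start and come from RefSeq on GRCm38.p6. Each is written 5′ to 3′ on the strand of its gene. Capitals mark every match, on either strand, to the core of the interferon stimulated response element, searched as GAAA, any 2 bases, GAAA.
Isg15: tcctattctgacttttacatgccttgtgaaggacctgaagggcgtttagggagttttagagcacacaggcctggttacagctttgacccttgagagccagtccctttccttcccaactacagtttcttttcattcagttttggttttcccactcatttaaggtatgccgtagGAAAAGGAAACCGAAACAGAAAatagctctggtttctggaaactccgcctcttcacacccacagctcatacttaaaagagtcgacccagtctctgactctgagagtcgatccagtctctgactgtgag
Oas1a: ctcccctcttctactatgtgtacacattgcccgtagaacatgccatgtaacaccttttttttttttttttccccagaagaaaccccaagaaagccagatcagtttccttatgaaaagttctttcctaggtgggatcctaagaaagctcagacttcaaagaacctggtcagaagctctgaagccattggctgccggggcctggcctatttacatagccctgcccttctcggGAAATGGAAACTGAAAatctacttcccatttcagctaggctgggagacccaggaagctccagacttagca
Ifit1: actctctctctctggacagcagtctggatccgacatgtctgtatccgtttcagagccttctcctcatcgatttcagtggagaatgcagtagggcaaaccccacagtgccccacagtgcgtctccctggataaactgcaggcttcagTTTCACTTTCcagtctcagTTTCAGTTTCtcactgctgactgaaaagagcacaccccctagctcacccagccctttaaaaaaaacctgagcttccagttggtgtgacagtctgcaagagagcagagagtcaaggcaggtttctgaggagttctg
Ifit3: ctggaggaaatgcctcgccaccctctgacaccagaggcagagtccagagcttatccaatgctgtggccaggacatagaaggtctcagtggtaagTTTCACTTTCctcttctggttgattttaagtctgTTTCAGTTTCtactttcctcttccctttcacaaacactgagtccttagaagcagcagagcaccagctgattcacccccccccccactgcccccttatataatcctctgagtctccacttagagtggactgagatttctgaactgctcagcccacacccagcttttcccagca
Bst2: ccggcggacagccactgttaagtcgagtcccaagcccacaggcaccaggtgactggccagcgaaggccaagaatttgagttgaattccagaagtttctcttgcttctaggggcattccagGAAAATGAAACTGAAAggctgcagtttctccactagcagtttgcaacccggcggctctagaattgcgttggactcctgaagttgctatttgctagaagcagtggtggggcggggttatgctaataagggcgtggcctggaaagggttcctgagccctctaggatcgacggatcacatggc
Rsad2: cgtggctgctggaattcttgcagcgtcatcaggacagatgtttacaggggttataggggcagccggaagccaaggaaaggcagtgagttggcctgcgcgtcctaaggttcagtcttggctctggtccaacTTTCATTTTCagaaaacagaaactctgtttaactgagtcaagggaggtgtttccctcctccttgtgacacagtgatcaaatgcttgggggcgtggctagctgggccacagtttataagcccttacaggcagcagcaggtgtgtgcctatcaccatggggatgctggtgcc
Ddx58: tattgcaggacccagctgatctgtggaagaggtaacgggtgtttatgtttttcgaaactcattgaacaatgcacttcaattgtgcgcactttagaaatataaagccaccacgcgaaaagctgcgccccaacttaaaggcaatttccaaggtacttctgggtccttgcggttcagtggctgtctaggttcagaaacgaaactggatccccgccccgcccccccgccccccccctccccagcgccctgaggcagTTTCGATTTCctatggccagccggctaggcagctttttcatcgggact

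The Isg15 window lies at chr4:156200769-156201068 on the minus strand, and its overlapping matches form a run of 22 bases from 78 to 57 bases before the start. Oas1a, at chr5:120907476-120907775 on the minus strand, has a run of 16 bases from 20 to 5 bases before its start. Bst2, at chr8:71537423-71537722 on the minus strand, has a run of the same length 130 to 115 bases before its start. Ifit1, at chr19:34640639-34640938 on the plus strand, and Ifit3, at chr19:34583279-34583578 on the plus strand, each hold a pair of separate matches. Those of Ifit1 begin 104 and 85 bases before the start, and those of Ifit3 begin 156 and 122 bases before it. Rsad2, at chr12:26456403-26456702 on the minus strand, has 1 match, 120 to 111 bases before the start. In Ddx58, at chr4:40239776-40240075 on the minus strand, the match is inside the transcript, at bases 3 to 12.

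A RefSeq window was at hand for 26 of the 35 members, all but Ifi27l2a, Parp9, Parp14, Oas2, Rtp4, Zbp1, Mx1, Dhx58 and Usp18. The core element was found in 13 of the 26, against 320 of 8475 tested genes with a window (3.78%). A gene with several windows counted once if any window matched. The 13 were the 7 printed and Oas3, Stat2, Trim30a, Eif2ak2, Ifih1 and Shisa5. Among members that were higher under the PHD2-deltaT label 7 of 12 had a match (58.3%), and among members that did not pass the test 6 of 14 did (42.9%). The longer form, the core followed by CT, was in 6 of 26 members, against 0.460% of tested genes. TTCNNNGAA, the gamma activated site, was in 9 of 26 members (34.6%), against 8.29% of tested genes. Both strands were searched for each, and every match to the longer form is also a match to the core. Irf7, Oasl2, Isg20, Ifi44 and Xaf1, the remaining higher members with a window, had no match to the core element there. That says nothing of sites elsewhere.

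Among the transcription factors, Irf7, which drives production of interferon alpha, was the one that rose. Irf7 (chromosome 7, 141262706 to 141266481) had 1041, 969 and 1040.5 normalized counts in PHD2-deltaT-labelled libraries, against 519 and 653 in WT libraries. These groups stand far apart. The PHD2-deltaT-labelled mean was 1017 ± 41.6 (SD, n = 3) and the WT mean 586 ± 94.4 (SD, n = 2). Irf7 rose by 0.80 on the log2 scale (SE 0.10, limma-trend adjusted p 0.000105). The ISGF3 subunits moved less and did not pass the test. Stat2 had 935, 811 and 882 in PHD2-deltaT-labelled libraries, against 696 and 730.2 in WT libraries. Irf9 had 2166, 1826 and 1956 in PHD2-deltaT-labelled libraries, against 1547 and 1729.9 in WT libraries. The groups do not overlap for either gene, with log2 fold changes of 0.29 (95% interval 0.10 to 0.49, limma-trend adjusted p 0.0882) for Stat2 and 0.27 (0.09 to 0.46, adjusted p 0.0962) for Irf9.

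Among the nucleic acid sensors, Dhx58 and Zbp1 rose, while the helicases RIG-I (Ddx58) and MDA5 (Ifih1) and the ligase Trim25 did not pass the test. Dhx58 encodes LGP2, a helicase without signalling domains of its own that modulates the other sensors. It had 219, 199 and 203 normalized counts in PHD2-deltaT-labelled libraries, against 112 and 124 in WT libraries (log2 fold change 0.81, SE 0.14, limma-trend adjusted p 0.0027). Every PHD2-deltaT-labelled value exceeded both WT values by a wide margin. Zbp1, a sensor of Z-form nucleic acid that can start necroptosis, had 2475, 2295 and 2367, against 1776 and 1880.5 in WT libraries. Its change was smaller, at 0.38 (SE 0.07, limma-trend adjusted p 0.00524), but the groups were again apart. Ifih1 had 234, 240.2 and 229 in PHD2-deltaT-labelled libraries, against 157 and 201 in WT libraries (log2 fold change 0.40, 95% interval 0.10 to 0.69, adjusted p 0.154). Ddx58 had 885, 834 and 907, against 766 and 805 (0.16, -0.03 to 0.34, limma-trend adjusted p 0.438). Trim25, the ubiquitin ligase that acts on RIG-I, overlapped between the groups, at 3072, 2941 and 2872 in PHD2-deltaT-labelled libraries and 2799 and 2977 in WT libraries (0.04, -0.11 to 0.19).

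The oligoadenylate synthetases make the messenger that activates RNase L. Of the 4 genes of this family among the members, 3 rose. Oas1a (chromosome 5, 120896256 to 120907521) had 161, 184 and 155 normalized counts in PHD2-deltaT-labelled libraries, against 41.3 and 74.3 in WT libraries. That is a log2 fold change of 1.57 (SE 0.22, 95% interval 1.10 to 2.03, limma-trend adjusted p 0.000301). Oas1a has close relatives in the same gene cluster, so the split of reads among them is uncertain. Oasl2, an OAS-like protein with ubiquitin-like domains, had 491, 498 and 469, against 149 and 255 in WT libraries (log2 fold change 1.31, SE 0.17, limma-trend adjusted p 0.000107). The 3 PHD2-deltaT-labelled libraries were close to each other for both genes, while the WT libraries differed. Oas3 had 959.8, 885 and 779.9, against 517 and 608 in WT libraries (0.63, SE 0.11, limma-trend adjusted p 0.00148). Oas2 was the lowest of the family. It had 20.6, 17.2 and 35.9 in PHD2-deltaT-labelled libraries, against 6.04 and 10.9 in WT libraries, without overlap, and did not pass the test (1.42, 95% interval 0.46 to 2.37, adjusted p 0.103). Its inferred reads were 16, 12 and 23 in PHD2-deltaT-labelled libraries, against 3 and 8 in WT libraries, a rate ratio of 2.74 (exact Poisson 95% interval 1.41 to 5.84, counting error only). Per kilobase of exon, Oas3 was the highest of the 4, at 124 normalized counts in PHD2-deltaT-labelled libraries and 79.6 in WT libraries, and Oas2 the lowest, at 5.52 and 1.90. The relatives Oas1b, Oas1c and Oasl1, on the wider list described below, overlapped between groups and did not pass the test. Their log2 fold changes were 0.41, 0.19 and 0.75 (limma-trend adjusted p 0.489, 0.735 and 0.243).

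The double-stranded RNA kinase PKR (Eif2ak2) and the editing enzyme Adar did not pass the test. Eif2ak2 had 314, 287 and 291 normalized counts in PHD2-deltaT-labelled libraries, against 201 and 258 in WT libraries (log2 fold change 0.38, 95% interval 0.10 to 0.66, limma-trend adjusted p 0.144). Adar had 3007, 2802 and 2898, against 2748 and 2775 in WT libraries (0.07, -0.08 to 0.22, adjusted p 0.739). Both genes were apart between groups by small margins, and the interval of Adar covers 0. The Adar exons share 16.8% of their bases with Chrnb2.

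The IFIT proteins bind viral RNA and hinder its translation, and the 3 genes described here lie close together on chromosome 19. Ifit1 rose, with 567, 561 and 536 normalized counts in PHD2-deltaT-labelled libraries, against 326 and 422 in WT libraries (log2 fold change 0.58, SE 0.11, limma-trend adjusted p 0.00651). Ifit3 rose too, with 1335, 979 and 1076 against 673 and 887 in WT libraries (0.54, SE 0.13, limma-trend adjusted p 0.0231). Its near-identical copy Ifit3b makes the split of reads between them uncertain. Ifit2 did not follow them. It had 739, 654 and 779.9 in PHD2-deltaT-labelled libraries and 731 and 732 in WT libraries, a log2 fold change of -0.02 (95% interval -0.22 to 0.18, adjusted p 0.962). The ratio of Ifit1 to Ifit2 was 0.767, 0.859 and 0.688 in PHD2-deltaT-labelled libraries, against 0.446 and 0.576 in WT libraries. For Ifit3 to Ifit2 the ratios were 1.81, 1.50 and 1.38 in PHD2-deltaT-labelled libraries, against 0.921 and 1.21 in WT libraries. These ratios were formed after the values were seen and are a description.

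ISG15, a ubiquitin-like protein joined to other proteins, and USP18, which removes it and also restrains signalling at IFNAR2, both rose more than 2-fold. Isg15 (chromosome 4, 156199424 to 156200818) had 500.0, 496 and 404 normalized counts in PHD2-deltaT-labelled libraries, against 182 and 208 in WT libraries. The PHD2-deltaT-labelled mean was 467 ± 53.9 (SD, n = 3), the WT mean was 195 ± 18.3 (SD, n = 2), and the difference came to 1.25 on the log2 scale (SE 0.13, limma-trend adjusted p 1.03e-05). It had the smallest p of the 35 genes. Usp18 (chromosome 6, 121245906 to 121270917) had 480.4, 467 and 395, against 175 and 219 in WT libraries (1.18, SE 0.13, limma-trend adjusted p 2.84e-05). In both genes PHD2-deltaT replicate 3 was the lowest of its group and still well above WT.

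Parp9 and Dtx3l encode partners in a complex that modifies proteins with ubiquitin and ADP-ribose, and they lie beside Parp14, a mono-ADP-ribosyltransferase, on chromosome 16. Parp9 had 3228, 2814 and 2975 normalized counts in PHD2-deltaT-labelled libraries, against 2213 and 2523 in WT libraries, and passed the test (log2 fold change 0.34, limma-trend adjusted p 0.0231). Dtx3l had 5252, 4533 and 5087, against 3956 and 4455 in WT libraries (0.24, 95% interval 0.07 to 0.41, adjusted p 0.133). Their groups are apart. The transcripts overlap, over 9.40% of the Parp9 exon bases, and the labels do not say whether counting used strand. Parp14 overlapped between the groups, at 3995, 3816 and 4211 in PHD2-deltaT-labelled libraries and 3159 and 3878 in WT libraries (0.19, limma-trend adjusted p 0.286).

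Of the 6 other antiviral effectors, 3 rose. Rsad2 encodes viperin, which makes a nucleotide that ends viral RNA chains. It had 53.9, 65.9 and 61.9 normalized counts in PHD2-deltaT-labelled libraries, against 17.1 and 23.8 in WT libraries (log2 fold change 1.53, SE 0.27, limma-trend adjusted p 0.0027). In inferred reads these were 42, 48 and 40 in PHD2-deltaT-labelled libraries, against 9 and 17 in WT libraries, a rate ratio of 2.96 (exact Poisson 95% interval 1.93 to 4.70). Bst2, or tetherin, holds budding virions at the cell surface. It had 2603, 2546 and 2598 in PHD2-deltaT-labelled libraries, against 1982 and 2078 in WT libraries (0.35, SE 0.07, limma-trend adjusted p 0.00758). It was tightly grouped within each genotype, and lies on the same chromosome as Egln1, 53.4 Mb away. Isg20, an RNA exonuclease, had 114, 114 and 152, against 61.4 and 86.2 in WT libraries (0.77, SE 0.20, limma-trend adjusted p 0.0422). Mx1, a dynamin-like GTPase that traps viral nucleocapsids, was at low counts and did not pass the test. It had 38.2, 34.5 and 25.0 in PHD2-deltaT-labelled libraries, against 8.05 and 21.8 in WT libraries (1.20, 95% interval 0.33 to 2.07, adjusted p 0.134). The WT libraries differed widely from each other. Samhd1, which breaks down deoxynucleotides, overlapped between groups at 25047, 22712 and 23332 in PHD2-deltaT-labelled libraries and 21195 and 22881 in WT libraries (0.10, -0.06 to 0.27, adjusted p 0.62). Trim30a, a mouse regulator of NF-kappa B signalling, had 2175, 1991 and 1934, against 1635 and 1930.0 in WT libraries (0.19, adjusted p 0.291).

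Among the remaining induced genes 4 of 7 rose. Ifi44 (chromosome 3, 151730922 to 151749960) had the largest log2 fold change of the 35, with 33.3, 42.6 and 33.0 normalized counts in PHD2-deltaT-labelled libraries, against 6.04 and 6.94 in WT libraries (2.31, SE 0.37, 95% interval 1.52 to 3.10, limma-trend adjusted p 0.00118). Its inferred reads were 26, 31 and 21 in PHD2-deltaT-labelled libraries, against 3 and 5 in WT libraries, a rate ratio of 5.77 (exact Poisson 95% interval 2.79 to 13.8). Both WT values were under 10, so the gene passed the filter on low values through its PHD2-deltaT-labelled libraries. Oas2 and Mx1 were under 10 in WT replicate 1, at 6.04 and 8.05, and likewise passed it through their PHD2-deltaT-labelled libraries. Without that filter 18 members were again higher, where 2.98% of all genes were. That fit could hardly differ, because the filter had kept 11534 of 11564 genes. The deposited values themselves held no gene with a mean below 4.37. Rtp4, a chaperone of membrane receptors, had 684, 754 and 717, against 377 and 488 in WT libraries (0.74, SE 0.11, limma-trend adjusted p 0.000604). The Rtp4 exons share 13.9% of their bases with Gm45338. Xaf1, an antagonist of the apoptosis inhibitor XIAP, had 426, 389 and 423, against 256 and 339.8 in WT libraries (0.48, SE 0.13, limma-trend adjusted p 0.0418). Ifi27l2a, a small membrane protein of mitochondria or the nuclear envelope, had 2859, 2530.4 and 3302, against 1988 and 2092 in WT libraries (0.50, SE 0.09, limma-trend adjusted p 0.00436). The other 3, all among the more abundant members per kilobase, did not pass the test. Ifi35 had 1280.4, 1286 and 1336 in PHD2-deltaT-labelled libraries, against 1203 and 1166 in WT libraries (0.13, adjusted p 0.454). Sp100, a nuclear body component, had 6099, 4869 and 5193 in PHD2-deltaT-labelled libraries and 4990.2 and 5169.8 in WT libraries (0.08, 95% interval -0.10 to 0.26). Shisa5, a protein of the endoplasmic reticulum tied to p53-dependent apoptosis, had 25310.4, 27186 and 25583 in PHD2-deltaT-labelled libraries and 26118 and 24789.7 in WT libraries (0.03, 95% interval -0.13 to 0.19). The groups of both genes overlap.

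**Figure D2:**
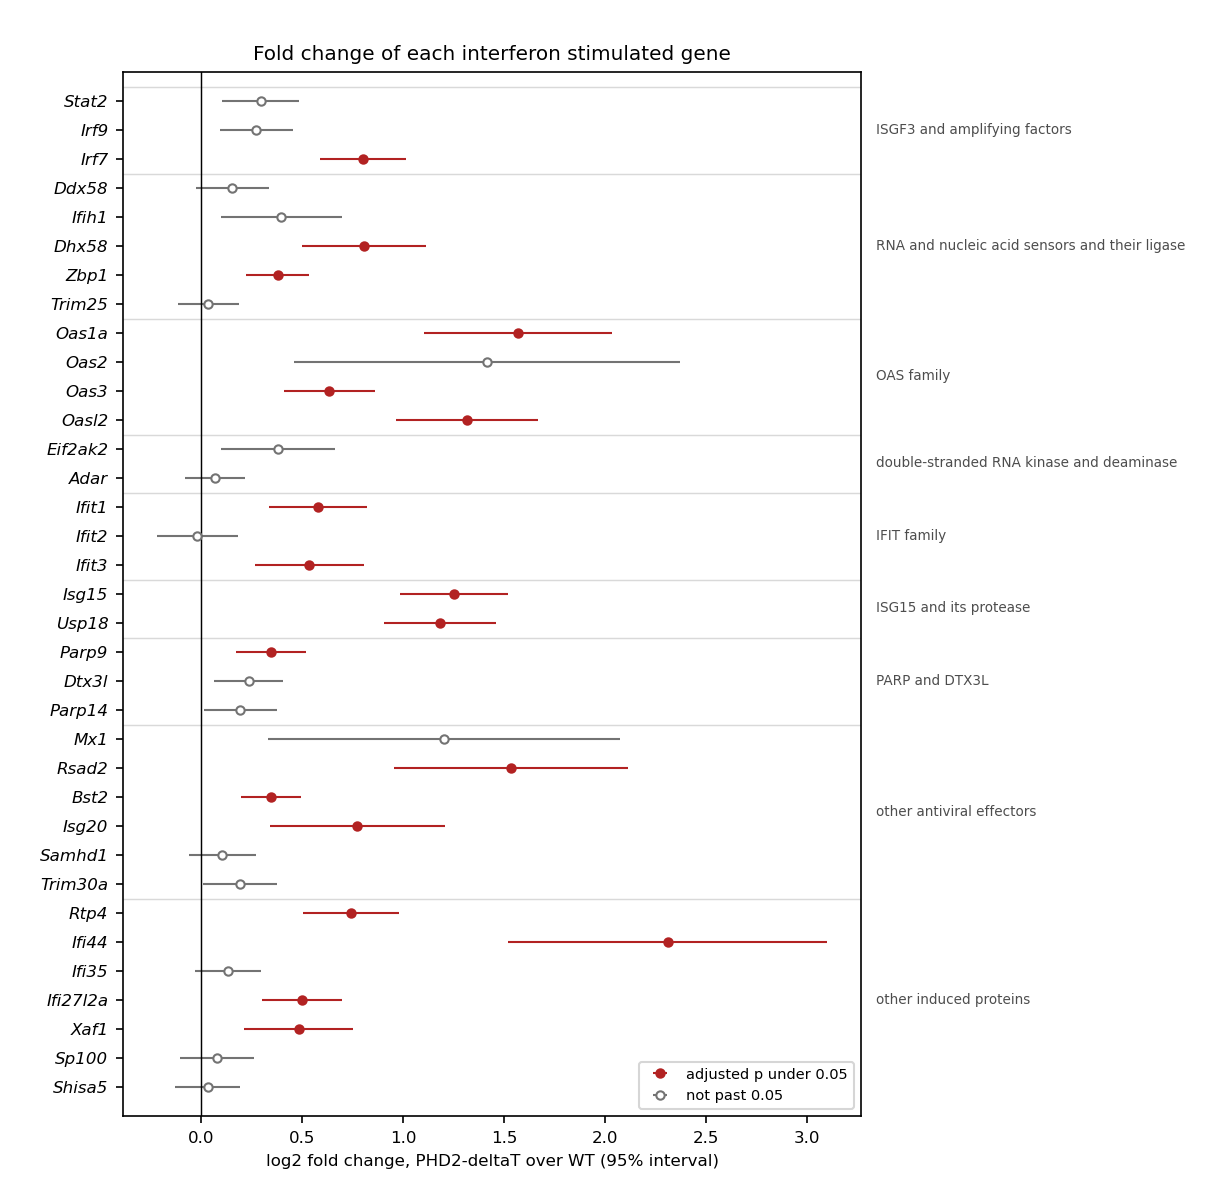
Log2 fold change of each member, libraries labelled PHD2-deltaT over WT libraries, with its 95% interval, ordered by role. Ifit2 alone has a negative estimate, at -0.02, and the 18 genes past the threshold run from 0.34 to 2.31. The highest is Ifi44, whose WT values were both under 10.

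Seen together, 34 of the 35 log2 fold changes were above 0, where 48.2% of all tested genes were. In 29 members all PHD2-deltaT-labelled values exceeded both WT values, against 16.0% of all genes, and in 0 members were all below, against 14.5%. The 6 members that overlapped between groups were Trim25, Ifit2, Parp14, Samhd1, Sp100 and Shisa5. The 18 genes that passed had a median log2 fold change of 0.76, or 1.69-fold, and 6 of them changed at least 2-fold. The 17 that did not pass had a median of 0.19, and 2 of them, Oas2 and Mx1, were at least 2-fold apart at low counts. The members' WT level per kilobase and their log2 fold change were inversely ranked (Spearman rho -0.72 over 35 genes, a description). The WT values enter both measures. Per kilobase, the WT level of the called genes spanned 1.06 to 4407 normalized counts and that of the others 1.90 to 7720.2.

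**Figure D3:**
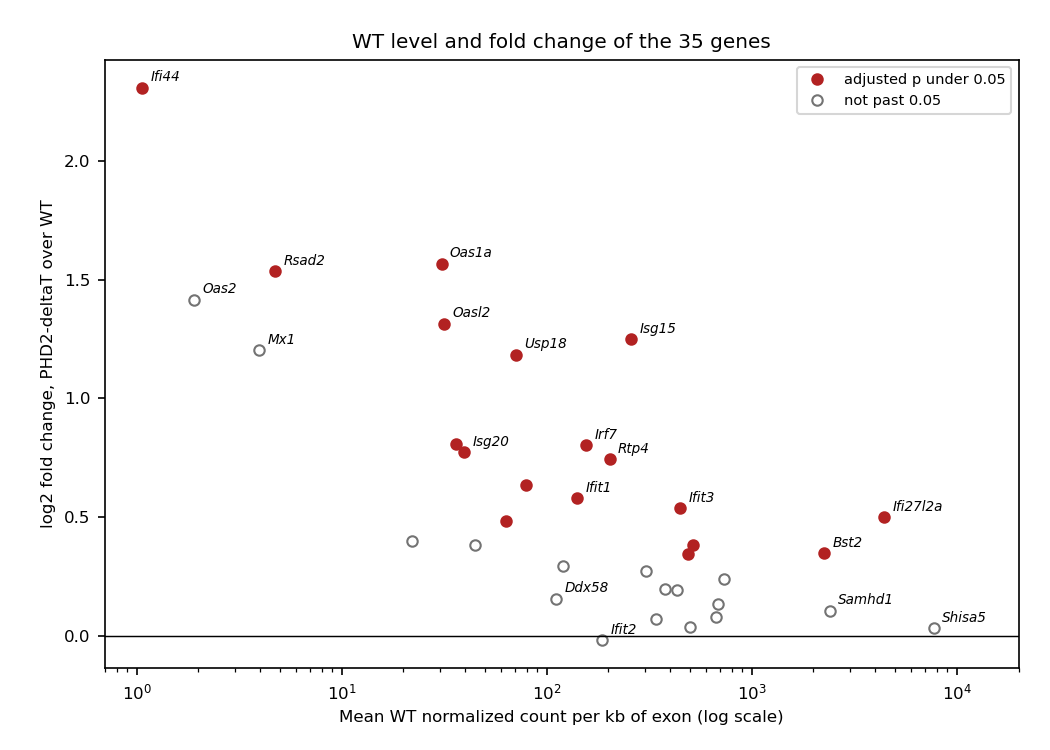
WT level per kilobase of exon (normalized counts per kb, log axis) against log2 fold change, libraries labelled PHD2-deltaT over WT libraries, for the 35 genes. Ifi44, Oas1a and Rsad2 lie at the upper left and Shisa5 and Samhd1 at the lower right. Bst2 and Ifi27l2a, both well expressed, passed the test.

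The libraries of one genotype also differed from each other over these genes. WT replicate 2 exceeded WT replicate 1 in 33 of the 35 members, where it did so in 49.7% of all tested genes. Ifi35 and Shisa5 were the exceptions. The median log2 difference from the WT mean was 0.46, 0.33 and 0.37 in the 3 libraries labelled PHD2-deltaT, against -0.10 and 0.10 in WT libraries. All genes tested had medians near 0 in every library. PHD2-deltaT replicate 1 was the highest of its group in 21 members, and replicates 2 and 3 in 7 each. WT replicate 1, the lowest library, also had the fewest inferred reads. Without it 10 members were higher, where 2.11% of all genes were, and the median log2 fold change was 0.31. Without WT replicate 2 it was 0.56, with 19 members higher, where 1.82% of all genes were. Without the mean-variance trend in the fit, 5 members were higher, where 0.659% of all genes were. Irf7, Isg15, Usp18, Dhx58, Oas1a, Oas3, Oasl2, Rsad2, Rtp4 and Ifi44 were higher in each of the 5 fits that left out 1 library. Zbp1, Ifit1, Ifit3, Parp9, Bst2, Isg20, Ifi27l2a and Xaf1 passed no longer without WT replicate 1, at limma-trend adjusted p of 0.084, 0.142, 0.29, 0.274, 0.103, 0.335, 0.0509 and 0.431. Some of these also failed without another library, Parp9 (adjusted p 0.0713) and Xaf1 (0.0812) without PHD2-deltaT replicate 1, and Isg20 (0.158) and Xaf1 (0.0867) without PHD2-deltaT replicate 3. Other members passed only when a library was left out. They were Stat2, Irf9 and Dtx3l without PHD2-deltaT replicate 2, at limma-trend adjusted p of 0.0439, 0.0404 and 0.0386, and Mx1 without WT replicate 2, at 0.036.

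**Figure D4:**
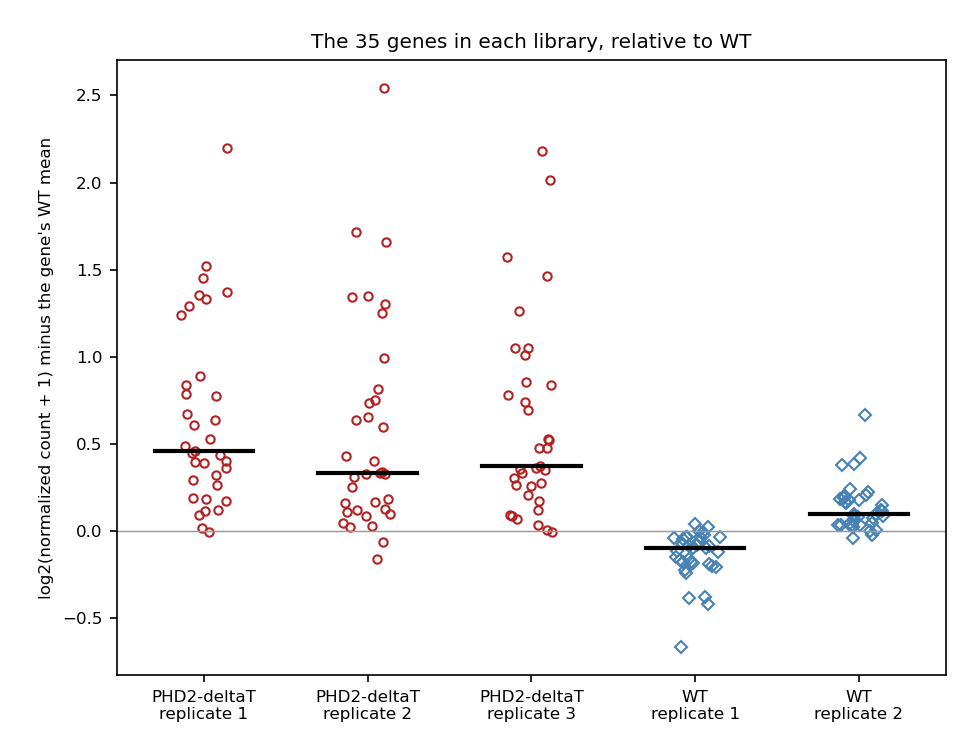
Log2 difference of every member from the WT mean in each library, with PHD2-deltaT-labelled libraries at the left and WT libraries at the right. The medians are 0.46, 0.33 and 0.37 in libraries labelled PHD2-deltaT, and -0.10 and 0.10 in WT libraries.

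Of 9 receptor and kinase genes analysed upstream of these targets, 1 was higher, where 2.97% of all genes were. At an unadjusted p under 0.05 there were 3, where 8.53% of all genes were, and in 5 all PHD2-deltaT-labelled values exceeded WT, where 16.0% of all genes did. The median log2 fold change was 0.09. The gene that passed was the interferon gamma receptor chain Ifngr1, with 5429, 4587 and 5039 normalized counts in PHD2-deltaT-labelled libraries, against 3763 and 4042 in WT libraries (log2 fold change 0.36, SE 0.08, limma-trend adjusted p 0.0136). Ifngr1 did not pass without WT replicate 1 (adjusted p 0.164). The type I receptor chain Ifnar1 overlapped between groups, at 2330.4, 2018 and 2277 in PHD2-deltaT-labelled libraries and 2103 and 2343 in WT libraries (-0.01, 95% interval -0.19 to 0.16). Ifnar2 had 1079, 1088 and 1111, against 928 and 991 in WT libraries (0.19, 0.02 to 0.36, adjusted p 0.267). The log2 fold changes of the kinases Jak1, Jak2 and Tyk2 were -0.04, -0.03 and 0.09. Ifngr2 and Il10rb, partner chains of the interferon gamma and lambda receptors, were at 0.36 (adjusted p 0.162) and 0.17 (adjusted p 0.395). Of 9 interferon genes looked for, 0 had values among the 11564 genes, so they were not analysed here. Of 12 sensing adaptors and kinases, 0 passed limma-trend, where 2.97% of all genes were higher, or limma without the trend, where 0.659% were. At an unadjusted p under 0.05 there were 3 higher, where 8.53% of all genes were. These were Tlr7, Myd88 and Irf5 (log2 fold changes 0.37, 0.22 and 0.79, limma-trend adjusted p 0.274, 0.166 and 0.0737). Mavs, Tbk1 and Irf3 were at -0.09, 0.12 and 0.11.

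Of 10 negative regulators of the pathway, 2 were higher, the kinase inhibitors Socs1 and Socs3, where 2.97% of all genes were. In 4 of the 10 all PHD2-deltaT-labelled values exceeded WT, where 16.0% of all genes did, and the median log2 fold change was 0.09. Socs1 had 2231, 2507 and 3043 normalized counts in PHD2-deltaT-labelled libraries, against 1929.8 and 1708 in WT libraries (log2 fold change 0.50, limma-trend adjusted p 0.00953). Socs3 had 1141, 971 and 1166, against 726 and 679.7 in WT libraries (0.63, limma-trend adjusted p 0.000587). The groups of both genes stood apart. Socs1 did not pass without WT replicate 2 (limma-trend adjusted p 0.151), and Socs3 passed whichever single library was omitted.

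A wider list of 52 interferon stimulated genes outside the 35 held 13 that were higher (2.97% of all genes were) and 0 that were lower, with a median log2 fold change of 0.23 and 28 whose PHD2-deltaT-labelled values all exceeded WT, where 16.0% of all genes did. Many of these respond to interferon gamma as well. Cxcl10, a chemokine that attracts activated T cells, had 507, 583 and 618 normalized counts in PHD2-deltaT-labelled libraries, against 279.9 and 299 in WT libraries (log2 fold change 0.97, limma-trend adjusted p 4.37e-05). Ube2l6, the conjugating enzyme for ISG15, had 245, 274 and 177, against 85.6 and 115 in WT libraries (1.19, limma-trend adjusted p 0.001). The other enzymes of ISG15 transfer on the list, the activating enzyme Uba7 (0.23, adjusted p 0.241) and the ligase Herc6 (0.15, adjusted p 0.829), did not pass the test. The surface antigen Ly6a was higher by 0.67, the transcription factor Irf8 by 0.54, Plac8 by 0.63, Slfn8 by 0.58 and the mitochondrial nucleotide kinase Cmpk2 by 0.85 on the log2 scale. Ifit1bl1 and Ifit3b, relatives of Ifit1 and Ifit3 in the same family, were at 0.51 and 0.62. Lgals3bp, Mov10 and Epsti1 changed by 0.36, 0.40 and 0.36. Irf1 was the 13th, with the largest p among those that passed. Without WT replicate 1, Cmpk2, Ifit3b, Lgals3bp, Mov10, Epsti1 and Irf1 did not pass, at limma-trend adjusted p of 0.215, 0.183, 0.0767, 0.141, 0.207 and 0.283. Without WT replicate 2 the same 6 did not pass, at 0.0761, 0.0536, 0.0826, 0.0643, 0.125 and 0.17. Without PHD2-deltaT replicate 1, Mov10 (0.0593), Epsti1 (0.0877) and Irf1 (0.161) did not pass. Cmpk2 was lost without PHD2-deltaT replicate 2 (limma-trend adjusted p 0.11), and Ifit3b (0.0557), Epsti1 (0.0961) and Irf1 (0.0665) were lost without PHD2-deltaT replicate 3.

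Markers of other cell types were measured in the same libraries. Over all genes tested 2.97% were higher, the share to set beside the count of each list below. Of 8 dendritic cell markers analysed, 5 were higher (Itgax, Zbtb46, Batf3, H2-Ab1 and Cd74). Batf3 had 4.03 and 10.9 in WT libraries and passed the filter on low values through its PHD2-deltaT-labelled libraries. Xcr1, H2-Aa and H2-Eb1 did not pass the test (log2 fold changes -0.04, 0.25 and 0.51, limma-trend adjusted p 0.989, 0.823 and 0.541). The 8 markers summed to 928 to 996 normalized counts in PHD2-deltaT-labelled libraries and 493 to 540 in WT libraries. The 7 plasmacytoid dendritic cell markers analysed summed to 12220 to 13629 in PHD2-deltaT-labelled libraries and 9539 to 10114 in WT libraries. The 2 that rose were Bst2, itself a member, and Irf8, which is on the wider interferon stimulated list. Their PHD2-deltaT-labelled and WT means were 2582 and 2030 for Bst2 and 7977 and 5471 for Irf8. Tcf4, Ccr9 and Pacsin1 had log2 fold changes of -0.25, -0.03 and -0.11, Spib and Runx2 of 0.54 and 0.34, and none of them passed. Siglech, Flt3 and Clec9a had no values and were not analysed here. The 4 natural killer markers analysed, of 8 listed, summed to 4781 to 5564 in PHD2-deltaT-labelled libraries and 3392 to 3689 in WT libraries. Nearly all of this was Eomes, the 1 that was higher, with means of 4970 and 3472. Ncr1, Klra4, Klra8 and Tyrobp, the others on that list, had no values. Klrb1c, Gzma and Klre1 had log2 fold changes of 1.38, 0.84 and 0.51 and did not pass (limma-trend adjusted p 0.189, 0.489 and 0.345). The 3 CD4 T cell markers analysed summed to 586 to 749 in PHD2-deltaT-labelled libraries and 474 to 590 in WT libraries. None passed limma-trend, and Zbtb7b (1.09, adjusted p 0.235) and Ctla4 (0.30, adjusted p 0.277) had an unadjusted p under 0.05. The B cell and macrophage lists, with 3 of 9 and 2 of 10 genes analysed, had 0 called. The B cell sums were 5179 to 5950.4 in PHD2-deltaT-labelled libraries and 5711 to 6192 in WT libraries. Nearly all of this was Ighm (log2 fold change -0.10), with means of 5362 and 5752. Cd79b and Ighd were at 0.34 and 0.21 (limma-trend adjusted p 0.291 and 0.751), and Cd79b had an unadjusted p under 0.05. The macrophage sums were 91.2 to 102 in PHD2-deltaT-labelled libraries and 102 to 108 in WT libraries. Mpeg1 was at 0.73 and Cd68 at -0.34 (limma-trend adjusted p 0.438 and 0.509). Whether these marker values came from such cells or from the CD8 T cells was not tested. The part of such cells in the interferon gene values was not tested either.

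The authors' deposited table has its own comparison, with fold changes given as WT over PHD2-deltaT. There, 16 of the 35 members had, in the authors' deposited table, an FDR under 0.05 with the higher mean under the PHD2-deltaT label, where 2.95% of 11339 genes did, and all 16 were among the 18 called here. Isg20 and Xaf1 were the other two, with an FDR of 0.0678 and 0.0517 in the authors' deposited table. The 151-gene selection in the authors' deposited table held 8 of the 35, namely Dhx58, Irf7, Oasl2, Usp18, Oas3, Rtp4, Isg15 and Oas1a.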

How the data were processed

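Per the labels' protocols, RNA came from sorted CD8 T cells through the RNeasy Plus Mini kit and the Ovation SoLo RNA-Seq System, with paired-end sequencing. The submitters' processing notes name the mm10 build, HTSeq 0.9.1, STAR 2.5.3 and Trimmomatic 0.36. Neither the scaling method nor strand use nor the tool behind the comparison made by the authors is given in the sources used here. Deposited by the authors were a normalized signal per gene and library, called normalized counts per the file headers, and log2 fold changes and p-values adjusted as FDR (blank for 225 genes).

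In each library the deposited signal fell on reads multiplied by a constant, which accounted for 98.6% to 99.8% of low values, against 54.1% to 77.0% by chance. Inferred reads rest on that pattern and were not used for tests of genotype. Intervals on them cover counting error only. Libraries of a genotype differed by more than counting error (chi-square per degree of freedom 4.53 to 6.83), so no library appears to be deposited a second time. This does not show that they came from separate mice.

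Names turned into dates were restored from gene IDs for 17 genes. The filter required 10 or more in at least 2 libraries and kept 11534 of 11564 genes. The fit of log2(value + 1) used R 4.3.3 and limma 3.58.1 with a genotype term alone, a mean-variance trend, two-sided tests and Benjamini-Hochberg adjustment over all genes tested, with 3 residual and 12.8 prior degrees of freedom. Fold changes on this scale understate the change of low genes. The fit was also run on simulated data with the same spread beyond counting error for every gene. That run does not bear on the effect of the mean-variance trend in these libraries. Coordinates and exon lengths came from GENCODE M21 on mm10, and start regions from RefSeq GRCm38.p6. Tables used pandas 2.3.3 and scipy 1.17.1 in Python 3.11.15, and plots matplotlib 3.10.9. Members and lists were chosen with earlier results of these data known. All members are accounted for, and of other lists the genes that passed are named, at most 12 a list by smallest p, with receptors given in any case. A gene that this rule takes is not reported here. Irf1, the 13th of its list, falls outside that rule, as do some genes that did not pass, among them Oas1b, Oas1c and Oasl1. Replicate numbers are only names. Alternatives were other pseudocounts (0.5 and 5), no filter or a mean of at least 50, quantile and TMM scaling, array weights, robust eBayes, a fit without the trend, and each library left out.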

Additional observations from a re-analysis of the deposited data

How the results depend on the processing

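Without the mean-variance trend limma called 96 genes in all, against 461 with it, and 5 members were higher (Dhx58, Isg15, Usp18, Rsad2 and Ifi44), where 0.659% of all genes were. In that fit the receptor and kinase list had 0 called, the negative regulators 0 and the further interferon stimulated genes 1. The cause was not tested. Leaving out each library in turn gave 244 to 523 genes in all (244 without WT replicate 2), 10 to 21 members (where 1.82% to 3.14% of all genes were higher), 0 to 2 receptors and kinases, 1 to 2 negative regulators, and 7 to 12 further interferon stimulated genes (7 without WT replicate 1). With 1 WT library left, that library is assumed to vary like the other group. The other alternatives left 16 to 18 members higher, where 2.76% to 3.22% of all genes were, Ifit3 failing with robust eBayes (adjusted p 0.0859) and Isg20 (0.0507) and Xaf1 (0.0527) with quantile normalization, and a mean of at least 50 left 31 members to test. Over the fits that left out 1 library, 4 estimates near 0 crossed it: Trim25 ran from -0.0082 (without WT replicate 1) to 0.081, Ifit2 from -0.074 to 0.054 (without PHD2-deltaT replicate 2), Sp100 from -0.015 (without PHD2-deltaT replicate 1) to 0.15 and Shisa5 from -0.0057 (without WT replicate 2) to 0.070. Of 486 member values under the alternatives, 450 kept direction and side of the threshold, 28 no longer passed and 4 newly passed. The longer response element, in place of its core, was in 6 members rather than 13. No paired analysis was possible because the labels give no replicate numbers. Depth limits Oas2, Mx1, Rsad2 and Ifi44 most, each at under 50 inferred reads per library.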
